A study of Mus musculus with 12 samples.

Results

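The 10 genes described here encode enzymes of glycolysis and the lactate dehydrogenase that follows it, namely *Hk1*, *Gpi1*, *Pfkl*, *Aldoa*, *Tpi1*, *Pgk1*, *Pgam1*, *Eno1*, *Pkm* and *Ldha*. They are 10 of the 21859 genes in the expression table of GFRa1+/KIT- spermatogonia from control and cryptorchid mouse testes. The set was chosen by gene symbol around *Eno1*, which had itself been selected on its lower level in the cryptorchid libraries of these same samples, so the values of *Eno1* are given as a description with no test. The other 9 genes were added for their place in the pathway, with earlier results of these samples known. All 10 passed the filter on low values, as did 16932 genes of the table.

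Glycolysis splits glucose into pyruvate in the cytosol and yields ATP and NADH without oxygen, and lactate dehydrogenase returns NADH to NAD+ by turning pyruvate into lactate. Enolase catalyses the last dehydration before pyruvate kinase, removing water from 2-phosphoglycerate. In the seminiferous tubule, Sertoli cells release lactate that later germ cells take up, and meiotic and haploid germ cells replace several glycolytic enzymes with isozymes from genes and retrogenes of their own.

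RNA was measured in 12 Smart-seq2 libraries, 5 from control and 7 from cryptorchid testes, of adult GFRa1-EGFP mice, in which EGFP marks cells that express *Gfra1*, the receptor gene of the self-renewal factor GDNF. On day 10 after unilateral surgery, the left testis held at the abdominal wall gave the cryptorchid group (genotype label Cryptorchid) and the right testis in the scrotum gave the control group (genotype label WT), so control and cryptorchid testes shared the operated animals and the transgene. Cryptorchid tubules were digested at a higher temperature than control tubules, so condition and digestion temperature cannot be told apart. EGFP+/KIT- cells were sorted and RNA of about 200 cells went into a library. No source says which libraries came from 1 animal, and P-values measure only the spread between these libraries.

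Control libraries held 4511730 to 24345368 reads on genes and cryptorchid libraries 3306771 to 20027902. Libraries numbered 1 to 3 stood apart from those numbered 4 and above: 53.2 to 60.8% of their low read numbers were even, against 48.2 to 50.5%, and differences are therefore also given within each of these sets. Markers of undifferentiated spermatogonia (10 of 10 genes passing the filter, summed level 1137 to 1698 RPM in control and 1295 to 1970 RPM in cryptorchid libraries) were present throughout. Haemoglobin RNA was at or near 0, and Sertoli cell markers summed to 43.8 to 266 RPM in control and 41.3 to 259 RPM in cryptorchid libraries.

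*Eno1* RNA was lower in all 7 cryptorchid libraries than in any control library, at 38.9% of the control level. Of the other 9 members 6 had a lower and 3 a higher mean, and 0 of the 9 passed limma's adjusted P-value, which ran from 0.359 to 0.960. *Hk1*, which encodes the hexokinase that traps glucose in the cell, was 3.06-fold lower and was the only one of these 9 that passed the study's rule of a 2-fold change with an unadjusted P-value under 0.05, a rule that called 2.36% of all genes lower. *Gpi1* and *Aldoa*, of the early steps, were 1.65-fold and 1.78-fold lower with unadjusted P-values under 0.05. *Tpi1*, *Pgam1* and *Pkm* had lower means, *Pgk1*, *Ldha* and *Pfkl* had higher means, and none of these 6 differences passed the test.

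**Figure D1:**
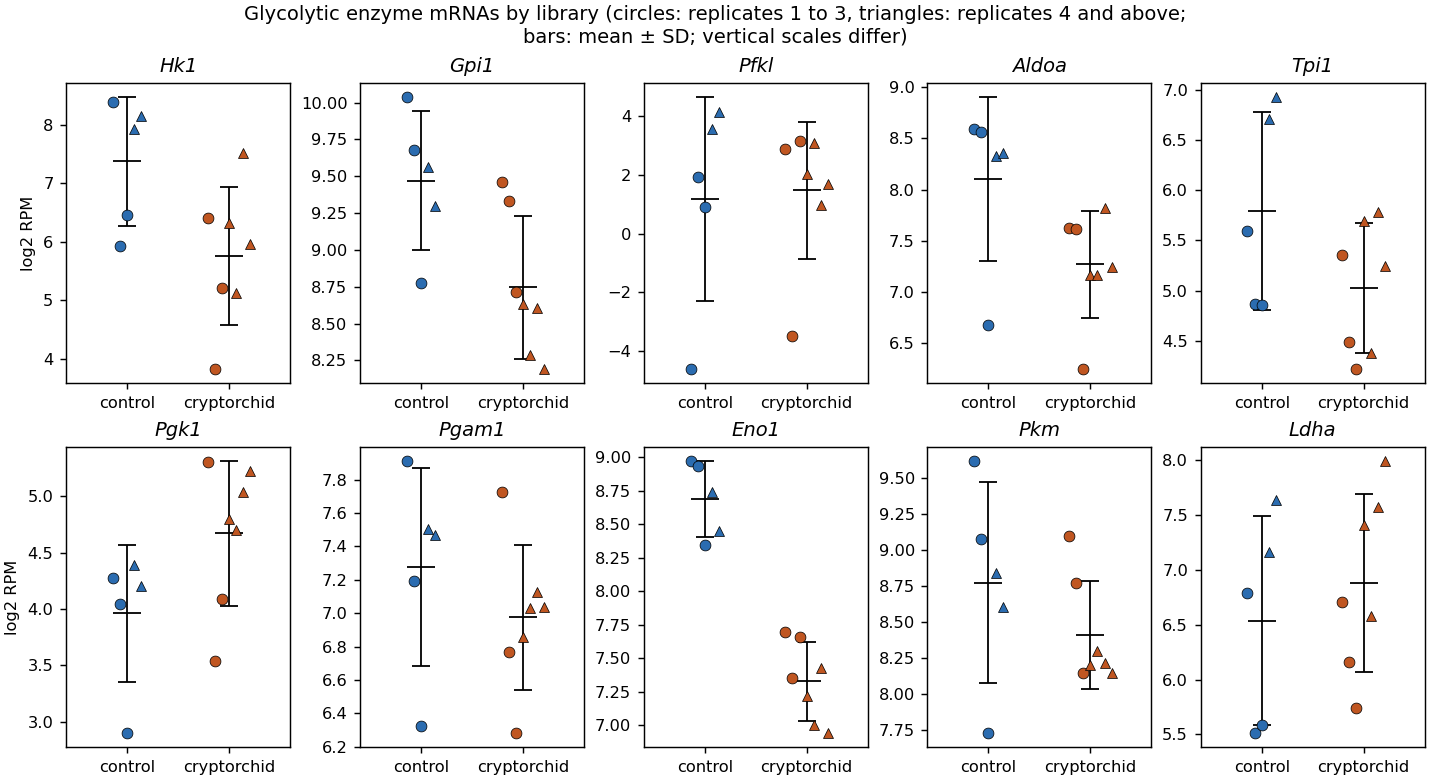
Deposited log2 RPM (vertical axis, a different scale in each panel) of the 10 enzymes in each control (blue) and cryptorchid (orange) library, with circles for replicates 1 to 3, triangles for replicates 4 and above, and bars for the mean ± SD (n = 5 and 7). *Eno1* is the single panel in which the groups do not overlap, with every control library at 8.35 or above and every cryptorchid library at 7.70 or below.

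The sequences upstream of a start site are shown for *Eno1*, which was lower, and for *Pgk1* and *Ldha*, whose means were higher, because glycolytic genes are known targets of the hypoxia inducible factors, which bind the core letters ACGTG or GCGTG. Each is the plus strand of the 250 bases before a RefSeq start on GRCm38.p6, with ACGTG, with GCGTG, and with the reverse complement of each, which is CACGT for the first and CACGC for the other, in capitals (forward and reverse letters overlap within CACGTG). The windows lie at chr4:150236458-150236707 for *Eno1*, chrX:106186850-106187099 for *Pgk1* and chr7:46845554-46845803 for *Ldha*.
Eno1: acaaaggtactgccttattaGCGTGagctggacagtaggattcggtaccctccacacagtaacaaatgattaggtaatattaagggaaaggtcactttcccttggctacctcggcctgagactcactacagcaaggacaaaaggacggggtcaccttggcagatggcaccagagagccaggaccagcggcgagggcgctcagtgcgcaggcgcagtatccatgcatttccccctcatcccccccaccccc
Pgk1: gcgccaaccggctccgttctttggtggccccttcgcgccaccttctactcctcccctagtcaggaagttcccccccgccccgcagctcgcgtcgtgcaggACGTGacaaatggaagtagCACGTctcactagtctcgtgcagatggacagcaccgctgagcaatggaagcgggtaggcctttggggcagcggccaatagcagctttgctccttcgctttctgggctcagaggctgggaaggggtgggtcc
Ldha: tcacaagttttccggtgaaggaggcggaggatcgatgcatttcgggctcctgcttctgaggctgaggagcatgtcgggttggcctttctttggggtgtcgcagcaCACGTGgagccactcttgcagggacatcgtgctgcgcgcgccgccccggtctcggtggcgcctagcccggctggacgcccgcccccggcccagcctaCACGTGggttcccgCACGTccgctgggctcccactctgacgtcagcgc
The *Eno1* window held 1 forward match, the *Pgk1* window held 1 forward and 1 reverse match, and the *Ldha* window held 2 forward and 3 reverse matches, counting overlaps. The second *Ldha* window (chr7:46846832-46847081) held 1 reverse match. The other 2 *Eno1* windows (chr4:150236947-150237196 and chr4:150236974-150237223) overlap and held the same 2 reverse matches. They overlap untranslated exon sequence in the annotation by 245 and 250 bases. Over the whole RefSeq promoter table, 38.6% of 32851 windows of this length and 41.5% of their 27025 genes held the letters on either strand. Among the members 12 of 17 windows held them, from 8 of the 10 genes, all but *Gpi1* and *Tpi1*. Overlapping windows of *Eno1* and of *Aldoa* share matches, so the windows are not independent. Of other members with lower means, an *Hk1* window held 1 forward and 2 reverse matches and the *Pgam1* window 2 and 1. The overlapping *Aldoa* windows and a *Pkm* window held 1 reverse match each. The *Pfkl* window, of a gene with a higher mean, held 1 forward match. A match describes the letters of the window only, and no link with the direction of a mean was tested.

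*Hk1* (chr10:62268855-62379908 on GRCm38, minus strand) encodes hexokinase 1, which phosphorylates glucose as it enters the pathway. Its log2 RPM was 8.40, 5.94, 6.46, 7.94 and 8.16 in control replicates 1 to 5. The cryptorchid libraries ran from 3.82 to 7.53 with a median of 5.96. All 7 were below the control median of 7.94 and 3 were below the lowest control library, so the groups overlapped, with cryptorchid replicate 2 the lowest and cryptorchid replicate 6 the highest of its group. The log2 difference was -1.61 (SE 0.543, limma unadjusted P = 0.00828, adjusted P = 0.359). It was -1.79 within replicates 1 to 3 and -1.82 within replicates 4 and above, and the call held with each library left out. Part of its exon sequence is shared with the antisense gene *Hk1os*, and the reads of the genes cannot be told apart there. Exons of *Gpi1*, *Aldoa* and *Tpi1* likewise overlap a gene on the other strand in part.

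*Gpi1* (chr7:34201330-34230336, minus strand) encodes the isomerase that turns glucose 6-phosphate into fructose 6-phosphate. In the controls its log2 RPM was 10.04, 9.68, 8.78, 9.56 and 9.30, and cryptorchid libraries ran from 8.19 to 9.46 with a median of 8.63. Of the 7 cryptorchid libraries 5 were below the lowest control, while cryptorchid replicates 1 and 2 lay within the control range. The means differed on the log2 scale by -0.72 (SE 0.313, limma unadjusted P = 0.0332, adjusted P = 0.479), smaller within replicates 1 to 3 (-0.33) than within replicates 4 and above (-0.999). With control replicate 1, 2 or 4 or cryptorchid replicate 4, 5, 6 or 7 left out, the P-value rose above 0.05, to 0.0954 at most without control replicate 1.

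*Pfkl* (chr10:77986947-78010083, minus strand) encodes the liver type of phosphofructokinase, the committing step of the pathway, and was the scarcest member. The control libraries stood at a log2 RPM of -4.61, 1.92, 0.90, 3.54 and 4.11, and cryptorchid libraries ran from -3.48 to 3.14 with a median of 2.04. Control replicate 1 and cryptorchid replicate 2 each held 1 read of it, under the floor of 3 reads, and the groups overlapped fully. The log2 difference of 0.30 had an SE of 1.36 (limma unadjusted P = 0.827, adjusted P = 0.960), and its sign turned to -1.14 without control replicate 1. It was 1.44 within replicates 1 to 3 and -1.88 within replicates 4 and above, a contrast between sets that was not tested. With a 95% confidence interval of -2.56 to 3.17, no difference in *Pfkl* was detectable here.

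*Aldoa* (chr7:126795234-126800751, minus strand) encodes aldolase A, which cleaves fructose 1,6-bisphosphate. In controls, log2 RPM was 8.59, 8.56, 6.68, 8.33 and 8.36, with replicate 3 far below the others. The cryptorchid libraries ran from 6.24 to 7.82 with a median of 7.24, all below the control median, and cryptorchid replicate 3 alone was below the lowest control. Cryptorchid minus control, the log2 difference was -0.84 (SE 0.348, limma unadjusted P = 0.0275, adjusted P = 0.464), -0.78 within replicates 1 to 3 and -0.99 within replicates 4 and above. Without control replicate 3 it grew to -1.19, past 2-fold. Leaving out control replicate 1, 2, 4 or 5 or cryptorchid replicate 3 raised the P-value above 0.05, to 0.0736 at most without control replicate 1, and the exact two-sided rank sum test gave P = 0.0732.

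*Tpi1* (chr6:124810586-124814296, minus strand) encodes triosephosphate isomerase, which interconverts the triose phosphates that aldolase releases. Control log2 RPM was 5.60, 4.87, 4.86, 6.71 and 6.93, and cryptorchid libraries ran from 4.21 to 5.78 with a median of 5.24. The groups overlapped, and 3 cryptorchid libraries were below the lowest control. Between the group means the log2 difference was -0.77 (SE 0.417, limma unadjusted P = 0.0811, adjusted P = 0.584). The size differed between the library sets, at -0.42 within replicates 1 to 3 and -1.55 within replicates 4 and above, where control replicates 4 and 5 were the highest of all libraries. Without control replicate 2 or 3 the difference was -1.002 and -1.004, with unadjusted P-values of 0.0329 and 0.0297.

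*Pgk1* (chrX:106187100-106203699, plus strand) encodes phosphoglycerate kinase 1, the first ATP-yielding step. The control libraries stood at a log2 RPM of 4.27, 4.04, 2.90, 4.39 and 4.20, and cryptorchid libraries ran from 3.54 to 5.30 with a median of 4.80. Of the 7 cryptorchid libraries 5 were above the highest control, the reverse of the pattern of *Eno1*, and cryptorchid replicates 2 and 3 were within the control range. The log2 difference was 0.71 (SE 0.387, limma unadjusted P = 0.0825, adjusted P = 0.585), and it was 0.57 and 0.65 within the library sets. Without cryptorchid replicate 2 it was 0.90 with an unadjusted P-value of 0.0226. The exons of *Pgk1* have 4 near-identical processed copies in the annotation, as have those of *Ldha*, with 1 each for *Gpi1*, *Tpi1*, *Pgam1* and *Pkm*. *Gm49759*, a gene of unsettled status in the annotation, overlaps *Pkm* exons on the same strand. None of these copies is in the table, and reads that match more than 1 place make the levels uncertain.

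*Pgam1* (chr19:41911923-41918660, plus strand) encodes phosphoglycerate mutase, which supplies the substrate of enolase. In controls, log2 RPM was 7.91, 7.19, 6.32, 7.50 and 7.47, against 6.28 to 7.73 with a median of 7.03 in cryptorchid libraries. The groups overlapped almost wholly, although 6 of 7 cryptorchid libraries were below the control median. Cryptorchid minus control, the log2 difference was -0.30 (SE 0.295, limma unadjusted P = 0.317, adjusted P = 0.778), with a 95% confidence interval of -0.93 to 0.32.

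*Eno1* (chr4:150236721-150248879, plus strand) encodes enolase 1. Its control log2 RPM was 8.98, 8.94, 8.35, 8.74 and 8.45, and cryptorchid libraries ran from 6.94 to 7.70 with a median of 7.35. The groups were separated by 0.65 on the log2 scale, and the spread within each group was small (SD 0.283 and 0.297). Between the group means the log2 difference was -1.36 (SE 0.240), -1.18 within replicates 1 to 3 and -1.45 within replicates 4 and above, and between -1.45 and -1.29 with each library left out. Over all genes, 0.283% had every cryptorchid library below every control library. Since *Eno1* was chosen for this difference, nothing is read from that share.

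The table also lists *Eno1b*, a retrogene copy of *Eno1* on another chromosome that is 99.5% identical to it over 1736 bases. Further processed copies that are not in the table are *Gm4735* (99.6% identical over 1302 bases) and *Gm5855* (96.3% over 1306 bases), so the level of *Eno1* carries the same uncertainty. The log2 RPM of *Eno1b* was 6.44, 6.61, 5.75, 5.81 and 5.53 in control libraries and 3.14 to 5.26 with a median of 4.47 in cryptorchid libraries. Those groups did not overlap either, with a log2 difference of -1.67. As the counting could have split reads between the copies, no P-value is given for *Eno1b* and its separate level is uncertain. Its reads made up 11.6 to 16.6% of the sum of both genes in control and 6.41 to 16.7% in cryptorchid libraries. The summed log2 RPM was 8.57 to 9.21 in control and 7.10 to 7.94 in cryptorchid libraries, a log2 difference of -1.39, and the summed groups did not overlap.

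*Pkm* (chr9:59656368-59679375, plus strand) encodes the muscle type of pyruvate kinase, the step after enolase. Control log2 RPM was 9.62, 9.08, 7.73, 8.84 and 8.61, against 8.14 to 9.10 with a median of 8.22 in cryptorchid libraries. Every cryptorchid library lay within the control range, whose low end was control replicate 3. The means differed on the log2 scale by -0.36 (SE 0.317, limma unadjusted P = 0.266, adjusted P = 0.75). Without control replicate 3 it was -0.63 with an unadjusted P-value of 0.0365.

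*Ldha* (chr7:46841475-46855627, plus strand) encodes the lactate dehydrogenase subunit of most somatic cells. The control libraries stood at a log2 RPM of 6.79, 5.51, 5.59, 7.16 and 7.64, against 5.74 to 7.99 with a median of 6.70 in cryptorchid libraries. The groups overlapped, and the highest library of each group was one of replicates 4 and above. The log2 difference was 0.34 (SE 0.430, limma unadjusted P = 0.438, adjusted P = 0.841), but 0.24 within replicates 1 to 3 and -0.01 within replicates 4 and above.

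**Figure D2:**
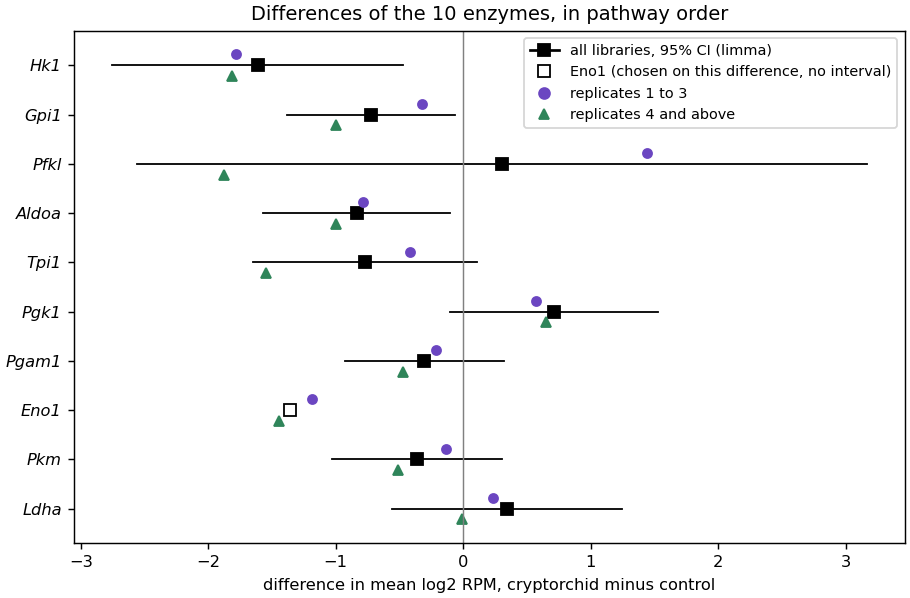
Difference in mean log2 RPM, cryptorchid minus control (horizontal axis), of the 10 enzymes in pathway order: squares with lines give all libraries with the limma 95% confidence interval, circles replicates 1 to 3 and triangles replicates 4 and above. *Hk1*, *Gpi1* and *Aldoa* lie to the left of 0 with their whole interval, *Pgk1* lies to the right in both sets, and *Pfkl* has opposite signs in the sets (1.44 and -1.88). The open square marks *Eno1*, which led to the choice of genes and has no interval.

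Of the 10 members, 7 had a lower and 3 a higher mean in cryptorchid libraries, while 43.3% of all genes tested had a lower mean. The rule of 2-fold and an unadjusted P-value under 0.05 called 1 of the 9 members other than *Eno1* lower (*Hk1*) and 0 higher, with a background of 2.36% of all genes called lower and 3.56% called higher. *Eno1* also met the rule, which its choice had fixed, and nothing is read from it. After quantile normalization the split over all genes was 542 lower and 457 higher, in place of 399 and 603. Among the same 9 members, 3 were lower at an unadjusted P-value under 0.05, a criterion met by 3.82% of all genes. By the adjusted P-value of the main limma fit 0 of the 9 members were called, where 0.0118% of all genes were called. Voom on recovered reads also called 0 of the 9. With array weights or a block for the replicate number, *Hk1*, *Gpi1* and *Aldoa* passed it, as given below with the counts over all genes. The median log2 difference was -0.54 over the 10 members and -0.36 over the 9, beside 0.0989 over all genes tested. With control replicate 3 left out, *Aldoa* and *Tpi1* joined the calls and the count was 4 with *Eno1* included. Lower calls over all genes rose there too, to 572 from 399.

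Within replicates 1 to 3, 7 of the 10 members had a lower cryptorchid mean, with a median log2 difference of -0.27. In replicates 4 and above it was 9 of 10, with a median of -0.997. The same direction in both sets was seen for 7 lower members and for 1 higher member, *Pgk1*. In bulk RNA of a sort, fewer cells of a type and less RNA per cell cannot be told apart.

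Per length of exon, *Gpi1* led the members and *Pfkl* was last in both groups. In control libraries *Gpi1* stood highest at 256 ± 79.0 RPKM (SD, n = 5), followed by *Pkm* at 184 ± 81.4, *Aldoa* at 166 ± 63.4 and *Eno1* at 165 ± 31.6 RPKM, neighbours whose spreads overlap. *Pgk1* at 9.05 ± 2.91 and *Pfkl* at 1.86 ± 1.95 RPKM were the lowest. Members with near-identical copies, *Pgk1* among them, have uncertain levels, and their ranks are uncertain too. In cryptorchid libraries *Gpi1* (157 ± 55.6 RPKM, SD, n = 7) and *Pkm* (135 ± 39.3) again led, while *Eno1*, at 64.3 ± 13.1 RPKM, lay below *Aldoa* at 88.8 ± 27.2 and *Pgam1* at 73.7 ± 23.2 RPKM, with spreads that overlap. *Pgk1* (15.1 ± 5.64) and *Hk1* (14.6 ± 11.6 RPKM) then stood side by side.

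Isozymes of the same steps differed in direction. Hexokinase 2 (*Hk2*), an inducible hexokinase, had a mean log2 RPM of 4.46 in control and 5.25 in cryptorchid libraries (log2 difference 0.79, SE 0.462, limma unadjusted P = 0.104). As a share of the summed RPKM of *Hk1*, *Hk2*, *Hk3* and *Hkdc1*, *Hk1* made up 87.4 ± 7.25% (SD, n = 5) of the control and 58.9 ± 22.1% (SD, n = 7) of the cryptorchid total, and *Hk2* made up 10.7 ± 5.01% and 39.7 ± 21.7%. The shares of *Hk1* overlapped between groups, at 75.0 to 92.8% in control and 24.2 to 91.5% in cryptorchid libraries. The share is built from the same *Hk1* values as above and is no separate evidence.

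At the phosphofructokinase step, *Pfkm* and *Pfkp*, the muscle and platelet types, outweighed *Pfkl* in both groups. *Pfkm* took 55.1 ± 6.25% of the step in control and 61.0 ± 8.77% in cryptorchid libraries, and *Pfkl* took 6.38 ± 5.52% and 4.68 ± 3.26%. The log2 differences of *Pfkm* (0.16, SE 0.276) and *Pfkp* (-0.16, SE 0.297) did not pass the test. *Aldoa* supplied 73.4 ± 7.91% of the summed RPKM of the aldolase genes shown in control and 73.8 ± 6.83% in cryptorchid libraries. *Aldoc*, the brain type, had a log2 difference of -0.49 (SE 0.385, limma unadjusted P = 0.216).

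Glyceraldehyde-3-phosphate dehydrogenase, the step between *Tpi1* and *Pgk1*, is encoded in most tissues by *Gapdh* and in haploid germ cells by *Gapdhs*. *Gapdh* had a log2 difference of -0.54 (SE 0.420, limma unadjusted P = 0.218). *Bpgm*, whose enzyme makes 2,3-bisphosphoglycerate, had one of -0.08 (SE 0.334), and *Pgam2*, the muscle type of the mutase, one of -1.61 (SE 0.949, limma unadjusted P = 0.107). *Adpgk*, which encodes a glucokinase that uses ADP, had a log2 difference of 0.24 (SE 0.234).

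Among the enolases, *Eno1* held 76.7 ± 1.22% of the RPKM in control and 71.3 ± 5.08% in cryptorchid libraries, and *Eno3*, the muscle type, held 4.32 ± 1.19% and 10.1 ± 4.23%. *Eno3* itself had a log2 difference of -0.12 (SE 0.440) and *Eno4*, a sperm enolase, one of -0.17 (SE 0.450). *Eno2*, the neuronal type, stayed at 7 reads or fewer in control libraries. The summed enolase RPKM was 166 to 260 with a median of 215 in control libraries and 68.1 to 116 with a median of 99.6 in cryptorchid libraries, without overlap. This sum follows *Eno1* and carries the same choice.

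*Pkm* made up 99.95 ± 0.0632% of pyruvate kinase RPKM in the control libraries and 99.86 ± 0.202% in those of the cryptorchid group (SD, n = 5 and 7), with *Pklr*, the liver type, near 0. For lactate dehydrogenase, *Ldhb*, the heart type, had a log2 difference of 0.88 (SE 0.675, limma unadjusted P = 0.212), with replicates 4 and above high in both groups. *Hk3*, *Ldhd* and *Eno2* had differences with SE values of 0.979 to 1.22 and did not pass the test, and *Hkdc1* was too low to be tested. Of the 19 other isozymes and missing steps, 17 were tested, 9 had a lower and 8 a higher mean. *Eno1b*, whose reads may be those of *Eno1*, met the rule by size and P-value but is not read as a call, and no other gene of the list was called. The median log2 difference of the 17 was -0.08.

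**Figure D3:**
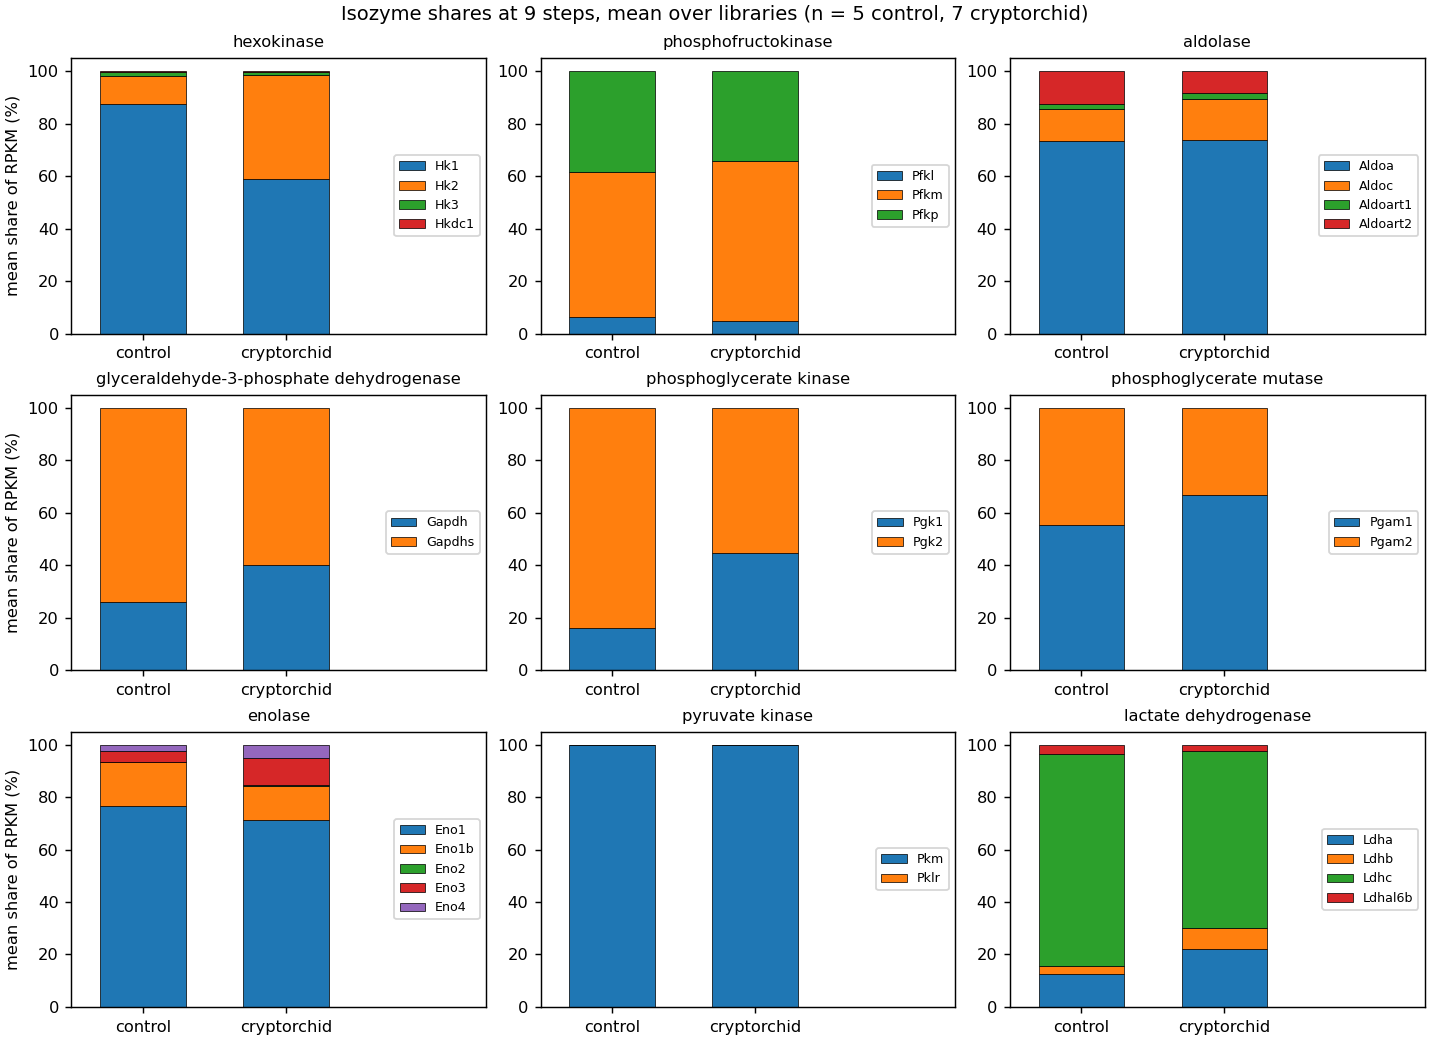
Mean share of each isozyme in the summed RPKM of the genes shown for its step (vertical axis, percent) in control (n = 5) and cryptorchid (n = 7) libraries, for the steps with more than 1 gene. *Hk1* takes 87.4% of the hexokinase bar in control and 58.9% in cryptorchid libraries, and *Pgk2* takes 83.9% and 55.5% of the phosphoglycerate kinase bar. *Pgk1* has processed copies 100% identical to it over 1255 and 1252 bases, so its level and the share of *Pgk2* are uncertain. The same limit holds for the other steps with near-identical copies, such as that of *Ldha*.

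The germ cell isozymes, which are known from meiotic and haploid cells, had lower means for 6 of 6 genes, beside 43.3% of all genes tested. Their median log2 difference was -1.40, and 2 of the 6 were called lower, beside 2.36% of all genes. Genes of 1 library are not independent, so these are not 6 separate observations. *Aldoart2*, an aldolase retrogene, had log2 RPM of 4.98, 3.45, 5.49, 5.36 and 5.85 in control and 0.77 to 4.99 with a median of 4.28 in cryptorchid libraries. Its groups overlapped, and its log2 difference of -1.73 (SE 0.683, limma unadjusted P = 0.0210, adjusted P = 0.433) passed the 2-fold rule. Without control replicate 5 its unadjusted P-value was 0.0566.

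*Gapdhs* stood at 5.10, 6.12, 5.42, 7.16 and 7.58 in control and at 3.32 to 6.97 with a median of 3.98 in cryptorchid libraries. Its groups overlapped through cryptorchid replicates 4, 6 and 7. The log2 difference of -1.43 (SE 0.648, limma unadjusted P = 0.0409, adjusted P = 0.502) passed the rule, and it lost the call in 7 of 12 fits with 1 library left out, those without control replicate 2, 4 or 5 or cryptorchid replicate 1, 2, 3 or 5 (unadjusted P up to 0.123). *Pgk2*, *Ldhc*, *Ldhal6b* and *Aldoart1* had log2 differences of -1.61, -0.66, -1.38 and -0.34 and did not pass the test, which was unpaired.

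RNA of spermatids was lower on average in cryptorchid libraries too, and the groups overlapped. All 6 spermatid markers, among them the protamine genes *Prm1* and *Prm2*, had lower means in cryptorchid libraries, and 2 were called lower. Their summed level was 475 to 2618 RPM with a median of 1104 in control and 13.5 to 1771 RPM with a median of 280 in cryptorchid libraries. Cryptorchid replicate 2, at 13.5 RPM, was also the lowest library for *Hk1* and *Pgk2*, and cryptorchid replicate 6, at 1771 RPM, was the highest of its group for *Hk1*, *Gapdhs* and *Pgk2*. Other libraries did not follow this order for *Hk1*. Cryptorchid replicate 1, at 91.9 RPM, had *Hk1* at 6.41, above replicate 3 (280 RPM, *Hk1* 5.21) and replicate 7 (515 RPM, *Hk1* 5.96). Control replicate 1, at 1104 RPM, had *Hk1* at 8.40, above control replicate 5 (2618 RPM, *Hk1* 8.16). *Ldhc*, *Ldhal6b* and *Aldoart2* were also lowest in cryptorchid replicate 2, but *Gapdhs* in cryptorchid replicate 3 and *Aldoart1* in control replicate 2. *Ldhc* was highest of all libraries in cryptorchid replicate 7 (10.44). The part of spermatid RNA in the differences of *Hk1* and of the germ cell isozymes was not tested.

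In cryptorchid replicate 6, whose spermatid sum was above that of 3 control libraries, *Hk1* at 7.53 lay within its control range. *Eno1* stood at 7.43 there, a place below the controls that its choice had fixed, and the part of spermatid RNA in its difference was not tested. With cryptorchid replicates 2 and 6 both left out, *Hk1* and *Aldoa* were called lower among the 9 members other than *Eno1*. Lower calls over all genes were then 467, against 399 in the main fit. Markers of spermatocytes summed to 214 to 343 RPM in control and 271 to 502 RPM in cryptorchid libraries, and those of differentiating spermatogonia to 99.3 to 175 RPM and 114 to 298 RPM.

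**Figure D4:**
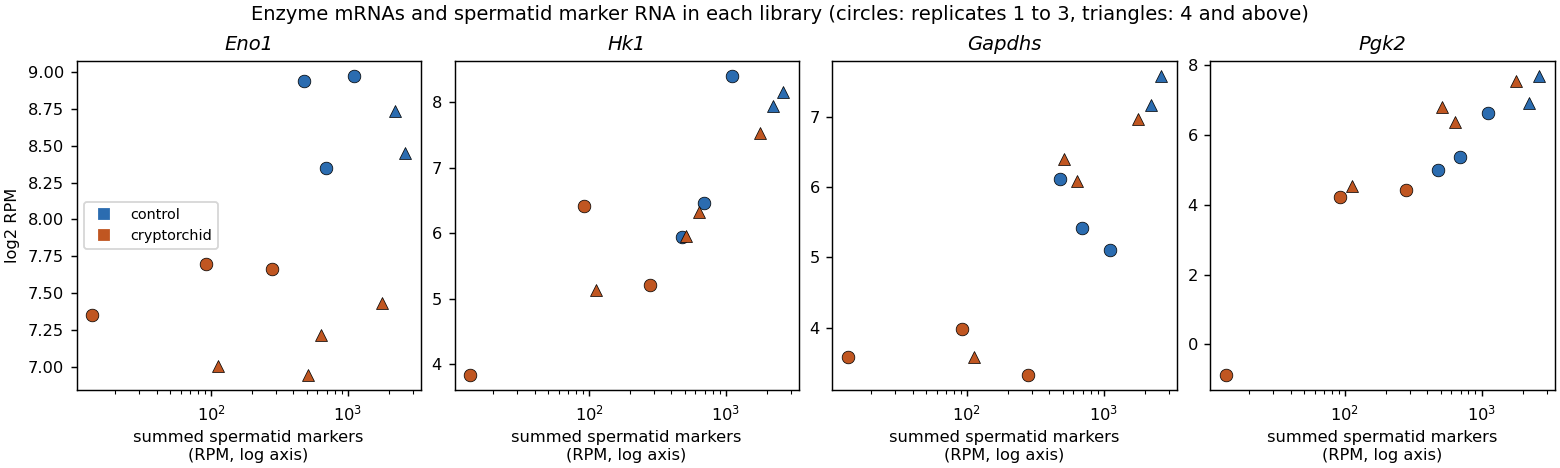
Log2 RPM of *Eno1*, *Hk1*, *Gapdhs* and *Pgk2* (vertical axes, different scales) against the summed RPM of 6 spermatid markers (horizontal log axis) in each control (blue) and cryptorchid (orange) library, with circles for replicates 1 to 3 and triangles for replicates 4 and above. *Hk1* and *Pgk2* are lowest in cryptorchid replicate 2, the library with the lowest spermatid sum (13.5 RPM), while *Hk1* is at 6.41 in cryptorchid replicate 1 (91.9 RPM). The *Eno1* panel is a description, since its groups were apart by choice.

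Glucose enters the cell through transporters, and the transport genes split. *Slc2a1*, which encodes the widely expressed transporter GLUT1, had log2 RPM of 6.37, 4.78, 4.68, 6.09 and 5.34 in control and 2.23 to 5.89 with a median of 3.72 in cryptorchid libraries. Cryptorchid replicate 1 was high and the other cryptorchid libraries were below every control library. Between the group means the log2 difference was -1.45 (SE 0.513, limma unadjusted P = 0.0114, adjusted P = 0.380), a call that held with each library left out, at -0.60 within replicates 1 to 3 and -2.21 within replicates 4 and above.

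*Slc2a3*, which encodes the high-affinity transporter GLUT3, was the only gene of the wider lists called higher. In controls, log2 RPM was 5.11, 4.07, 3.65, 4.70 and 5.55, against 4.16 to 6.38 with a median of 5.97 in cryptorchid libraries, and the groups overlapped. The means differed on the log2 scale by 1.03 (SE 0.400, limma unadjusted P = 0.0192, adjusted P = 0.430). It lay close to the 2-fold limit and lost the call after median centring or quantile normalization and without control replicate 2 or 3 or cryptorchid replicate 2, 4, 5 or 6, where it was as low as 0.79. Of the 7 transport genes tested 4 had a lower and 3 a higher mean, with a median log2 difference of -0.03. *Slc2a4* was too low to be tested.

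Of 13 regulators tested, 7 had a lower and 6 a higher mean, and the single call was *Pfkfb3*, whose enzyme makes fructose 2,6-bisphosphate, the activator of phosphofructokinase. *Pfkfb3* had log2 RPM of 5.14, 3.19, 3.17, 4.61 and 5.29 in control and 2.25 to 4.12 with a median of 3.20 in cryptorchid libraries. Its groups overlapped, and the log2 difference was -1.19 (SE 0.493, limma unadjusted P = 0.0267, adjusted P = 0.463), lost without control replicate 1, 4 or 5 (unadjusted P up to 0.0952). *Txnip*, which restrains glucose uptake, and *Hif1a*, which encodes the oxygen-regulated subunit of hypoxia inducible factor 1, had the highest levels of the list. Their log2 differences were -0.56 (SE 0.336, limma unadjusted P = 0.111) and -0.02 (SE 0.416), and neither passed the test.

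The pentose phosphate pathway, which branches off at glucose 6-phosphate and makes NADPH, had 2 lower calls among 7 genes. Over all genes tested 2.36% were called lower. *Pgd*, which encodes 6-phosphogluconate dehydrogenase, had log2 RPM of 7.38, 6.79, 6.79, 7.04 and 6.49 in control and 5.48 to 6.48 with a median of 5.84 in cryptorchid libraries. Its groups did not overlap, beside 0.283% of all genes apart in this direction. Only a narrow gap lay between control replicate 5 (6.49) and cryptorchid replicate 1 (6.48). Cryptorchid minus control, the log2 difference was -1.005 (SE 0.250, limma unadjusted P = 0.000837, adjusted P = 0.205), so close to 2-fold that the fold limit was missed in 6 of 12 fits with 1 library left out (without control replicate 1 or 4 or cryptorchid replicate 3, 5, 6 or 7), the smallest being -0.88, while its unadjusted P-value stayed at 0.00377 or below.

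*Pgls*, which encodes the lactonase of the step before *Pgd*, had log2 RPM of 6.32, 6.72, 4.78, 6.67 and 6.41 in control and 3.75 to 5.77 with a median of 5.15 in cryptorchid libraries. Control replicate 3 alone brought the groups to overlap. Its log2 difference was -1.08 (SE 0.387, limma unadjusted P = 0.0122, adjusted P = 0.389), and it fell short of 2-fold without control replicate 2 or 4 or cryptorchid replicate 3 (-0.85 at the smallest). Over the 7 genes 5 had a lower and 2 a higher mean, with a median log2 difference of -0.31. In the 14 alternatives other than leaving out 1 library, *Pgd* kept its call in 7 and *Pgls* in 13.

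For the entry of pyruvate into mitochondria, 13 genes were tested, 4 with a lower and 9 with a higher mean. *Pdk2*, which encodes a kinase that turns pyruvate dehydrogenase off, was the single call. It had log2 RPM of 5.15, 4.75, 4.18, 4.14 and 4.90 in control and 1.23 to 4.71 with a median of 3.68 in cryptorchid libraries. The overlap was wide, and the log2 difference of -1.11 (SE 0.521, limma unadjusted P = 0.0482, adjusted P = 0.524) lost its call in 7 of 12 fits with 1 library left out, those without control replicate 1, 2 or 5 or cryptorchid replicate 1, 2, 5 or 7 (unadjusted P up to 0.109). *Mpc2* of the mitochondrial pyruvate carrier and *Pdhb* of pyruvate dehydrogenase, the highest of the list, had log2 differences of -0.28 (SE 0.30) and 0.13 (SE 0.215). In gluconeogenesis 3 of 5 genes were tested and all 3 had lower means, with *Fbp1*, of fructose 1,6-bisphosphatase, at -0.90 (SE 0.777) and *G6pc3*, of a glucose 6-phosphatase, at -0.66 (SE 0.415), neither past the test.

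Of 10 other genes known to respond to hypoxia that could be tested, 8 had a higher and 2 a lower mean, with a median log2 difference of 0.42. *Ndrg1*, a stress response gene, was the single call, with log2 RPM of 6.88, 6.17, 6.36, 7.18 and 6.81 in control and 4.33 to 6.34 with a median of 5.59 in cryptorchid libraries. Cryptorchid replicate 1 alone reached the control range. The log2 difference was -1.28 (SE 0.326, limma unadjusted P = 0.000996, adjusted P = 0.215), and it was called with each library left out. *Kdm3a*, which encodes a histone demethylase and had the highest level of the list, had a log2 difference of 0.43 (SE 0.322).

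Over all 85 genes of these wider lists, 76 were tested, of which 40 had a lower and 36 a higher mean, with a median log2 difference of -0.02. In all, 9 were called lower (*Eno1b* among them, which is not separate from *Eno1*) and 1 higher, beside the background of 2.36% and 3.56%, and 0 passed limma's adjusted P-value, with 13 at an unadjusted P-value under 0.05 and 0 adjusted calls by voom. The count of lower calls was 5 without control replicate 4 or control replicate 5, where lower calls over all genes were 280 in each fit, against 399.

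**Figure D5:**
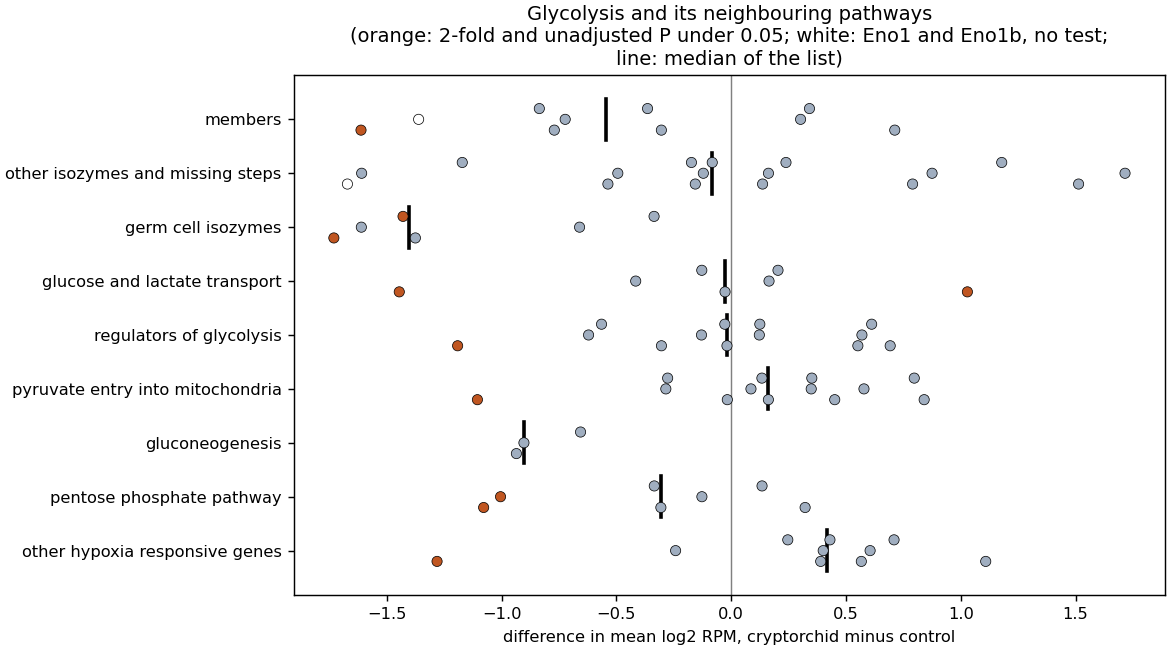
Difference in mean log2 RPM, cryptorchid minus control (horizontal axis), of each tested gene (dot) in the 10 members (top row) and the 8 wider lists, with orange for genes past 2-fold at an unadjusted P-value under 0.05, white for *Eno1* and *Eno1b*, which are given with no test, and a line for the median of each list. The medians run from -1.40 for the germ cell isozymes to 0.42 for the other hypoxia responsive genes, with the members at -0.54.

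The genes whose log2 RPM over the 12 libraries was most like that of *Eno1* are given as a description, since all points share the split of the groups. *Rhbdf2*, which encodes an inactive rhomboid protein, had Pearson's r = 0.955 (Spearman's rho = 0.951), *Eno1b* 0.919 (0.944), *Espl1*, of separase, 0.903 (0.888), *Pgd* 0.898 (0.874) and *Tbc1d17*, of a Rab GTPase activating protein, 0.896 (0.916). Among the members, r was highest for *Gpi1* at 0.819, then 0.627 for *Aldoa*, 0.592 for *Hk1* and 0.558 for *Pkm*. It was below 0 for *Pgk1* (-0.443), *Ldha* (-0.317) and *Pfkl* (-0.130). As *Eno1* was chosen for its separated groups, these values largely restate each gene's own difference between the groups.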

How the data were processed

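The deposited table held log2 RPM values, which the authors made per the labels and methods with FastQC 0.11.8, Trim Galore 0.6.6 and HISAT2 2.1.0 on mm10 (the GRCm38 build), counting reads over genes in SeqMonk. Genes without reads carried the value of 0.9 reads, and whole reads were recovered in every library by taking its lowest value as 0.9 reads. Reads give depth and floors (3 reads, counting error only). The authors called genes with edgeR on counts, while the deposited values are log2 RPM, so a test on the log scale was used. Here limma 3.58.1 in R 4.3.3 (lmFit, eBayes with trend) was fitted over the 16932 genes whose mean RPM exceeded -1 on the log2 scale, 5 control against 7 cryptorchid libraries, two-sided, with Benjamini-Hochberg adjustment over all of them. Calls needed 2-fold and an unadjusted P-value under 0.05, as in the study. The test was also run on simulated independent reads with the same dispersion for every gene. These had no library sets and no shared animals, so the run cannot check the test for either, and nothing is concluded from it.

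The members and lists were chosen with earlier results of these data known. Named genes are the 10 members, every other isozyme of their steps (2 of which are not reported here by name or in the isozyme shares, and are kept in the counts of their list), in each other list the calls and, with fewer than 2 calls, the 2 genes of highest mean, and the 5 genes most correlated with *Eno1*. RPKM divides RPM by exon length (GENCODE vM21). Near copies match at 95% identity over 150 bases. Columns belonging to no sample numbered 0. Alternatives were median centring, quantile normalization, log2(RPM + 1), log2(RPM + 0.1), no filter, a filter at 2, array weights, voom on recovered reads, a block for the replicate number, a term for the library sets, each set alone and each library left out. Added after seeing the data were *Eno1* and *Eno1b* summed, an exact rank sum test, and cryptorchid replicates 2 and 6 left out. Python 3.11.15, pandas 2.3.3, numpy 2.4.6, scipy 1.17.1 and matplotlib 3.10.9 were used.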

Additional observations from a re-analysis of the deposited data

Results flagged for a closer look

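In 11 of 66 groups of libraries (33 genes of the members and their isozymes, each group on its own), 1 library stood apart from the rest of its group by Dixon's criterion. Chance flags about 1 in 20 groups, and genes of 1 library are not independent. Control replicate 3 was low for *Aldoa* (6.68 log2 RPM), *Pgk1* (2.90), *Eno3* (2.80) and *Hk3* (-3.50, a gene without reads there). Cryptorchid replicate 2 was low for *Pfkl* (-3.48, 1 read), *Pgk2* (-0.90, 6 reads), *Pgam2* (-0.90, 6 reads) and *Ldhal6b* (-3.48, 1 read). This was the library with the least spermatid marker RNA. Cryptorchid replicate 3 was low for *Aldoa* (6.24), cryptorchid replicate 1 for *Ldhd* (-4.63, no read), and control replicate 5 was high for *Pfkm* (5.97). No library stood apart in *Eno1*, *Hk1* or *Gpi1*.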

How the results depend on the processing

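Under 26 alternatives the log2 difference of *Eno1* stayed between -1.45 and -1.18. *Hk1* kept an unadjusted P-value under 0.05 in all 27 run for it, and 7 to 9 members had a lower mean. The members called lower, *Eno1* (chosen for its fall) always among them, numbered 4 with array weights (adding *Aldoa* and *Tpi1*) and 4 in replicates 4 and above alone (adding *Tpi1* and *Pfkl*), and 2 to 4 with each library left out. *Pfkl* reversed to -0.091 on log2(RPM + 1), -0.41 with array weights, -0.12 with the term for library sets, -1.88 in replicates 4 and above alone, and ran from -1.14 to 1.13 with each library left out. *Ldha* reversed to -0.020 with the replicate block and -0.013 in replicates 4 and above alone. In the wider lists, leaving out each library gave 5 to 11 lower and 0 to 3 higher calls. Higher calls were 0 after median centring, quantile normalization, log2(RPM + 1) or the set term, in replicates 4 and above alone and without cryptorchid replicates 2 and 6, and were 3 without the filter. The causes were not tested.

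Samples that share a number correlated at 0.347, 0.363, 0.411, 0.250 and 0.049, and as not every pair was over 0.1 the numbers were not taken to pair the samples. Replicates 1 to 4 correlated best with their own number and 5 did not, so a pairing of some libraries was not settled. With the replicate block, lower calls were 14 in the wider lists and higher calls 2, over all genes 900 lower and 778 higher, with *Pgk2*, *Ldhc* and *Ldhal6b* joining the lower calls. With the block, limma's adjusted P-value was 0.00154 for *Hk1*, 0.0380 for *Gpi1* and 0.00485 for *Aldoa*. With array weights and no block it was 0.0371, 0.045 and 0.029. In the main fit 0 of the 9 members other than *Eno1* passed. Over all genes, 567 lower and 382 higher genes had an adjusted P-value under 0.05 with the block. These were 224 and 252 with array weights, and 1 and 1 in the main fit. Of the wider lists, 14 genes passed with the block and 4 with array weights, *Eno1b* among them. Over all genes, lower calls were 703 with array weights, 635 with the set term and 705 in replicates 4 and above alone. Higher calls were 385 with the filter at 2 and 287 in replicates 1 to 3 alone.

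Low read numbers limited *Pfkl*, with 1 read in each of 2 libraries, and the isozymes *Hk3*, *Eno2*, *Pklr* and *Ldhd*. Reads of 1 starting pool of about 200 cells were amplified, so read numbers overstate the number of molecules.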
